A study of Mus musculus with 140 samples.

Results

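Of the 34255 genes of a deposited count table, 9 are described: H2-Aa, H2-Ab1, H2-Eb1, H2-DMa, H2-DMb1, Cd74, Ciita, Mgl2 and Cd209a. The first 7 belong to the major histocompatibility complex (MHC) class II pathway, and Mgl2 and Cd209a are lectins used as dendritic cell markers. They were picked by symbol because of their values in mice with cecal ligation and puncture against sham-operated mice, so for these genes that contrast is a description and carries no test. Cecal ligation and puncture, called CLP from here on, opens the gut into the abdomen and is used to model sepsis. The table holds 3′ end RNA counts (Lexogen QuantSeq) from 28 mice, all male, wild-type (WT) and of strain C57BL6/OlaHsd. They form 7 groups of 4 mice: healthy mice at 0 h, and mice 4, 24 or 72 h after sham surgery or after CLP. Each mouse gave 5 libraries, 140 in all: 1 of whole kidney, not microdissected, and 4 laser-microdissected from kidney cortex, namely glomeruli, arterioles, post-capillary venules and peritubular capillaries. The labels give each mouse as a biological replicate, and no age of the mice is used here.

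MHC class II molecules are pairs of an alpha and a beta chain that carry peptides from endocytosed proteins to the cell surface, where CD4+ T cells read them. Dendritic cells, B cells and macrophages display them at rest, and interferon gamma can bring them to other cells, such as endothelium and tubule. Their genes share a promoter module of an X box and a Y box, bound by constitutive factors that recruit the transactivator Ciita, without which the genes are nearly silent. In kidney, resident mononuclear phagocytes between the tubules are the main class II-bearing cells.

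Positions are those of GENCODE M21 on build GRCm38. H2-Aa (ENSMUSG00000036594, chr17:34282744-34287823, minus strand), H2-Ab1 (ENSMUSG00000073421, chr17:34257689-34269419, plus) and H2-Eb1 (ENSMUSG00000060586, chr17:34305867-34316674, plus) encode alpha or beta chains. H2-DMa (ENSMUSG00000037649, chr17:34119541-34139101, plus) and H2-DMb1 (ENSMUSG00000079547, chr17:34153072-34160230, plus) encode the DM chaperone, and all 5 lie in the MHC region of chromosome 17.

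Promoter sequence from RefSeq (build GRCm38.p6, 250 bases before to 50 after a start) was matched by symbol for 6 of the 9 genes. It was searched for the letters of the X box core (GNAACNG) and the Y box (ATTGG), and is shown for H2-Eb1 and H2-DMb1, which held both in the order of the class II module, and for H2-Aa, the chain gene described first. Both strands were searched, and capitals mark the matches:
H2-Eb1, chr17:34305766-34305822, plus strand: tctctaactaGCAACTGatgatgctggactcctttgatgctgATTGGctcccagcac
H2-DMb1, chr17:34153087-34153116, plus strand: ggtttacctaGTAACTGatgatgctaggct
H2-Aa, chr17:34287857-34287913, minus strand: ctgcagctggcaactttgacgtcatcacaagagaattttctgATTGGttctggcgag
In H2-Eb1 the X core began 91 bases before the start and the Y box 59 bases before it, 32 bases apart. In H2-DMb1 the positions were 94 and 61 bases before the start, 33 apart, and only the stretch around the X core is printed. The RefSeq start used for H2-DMb1 lies inside the GENCODE gene, so this stretch does too. H2-Aa held a Y box 48 bases before the start and no X core by these letters. An X core followed on the same strand by a Y box with 28 to 38 bases between their starts stood in 165 of 32851 promoters, 0.502%, whereas a Y box stood in 37.4% and an X core in 42.3%, with or without the other. Among the pathway and marker genes listed further on, H2-Eb2 and Icosl also held the pair. Mgl2 held 2 Y boxes, 129 and 57 bases before the start, and no X core, Cd209a held neither motif, and H2-DMa held neither in 1 promoter and a Y box alone in the other. These are matches of letters, not measured binding sites.

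The other 4 genes lie on other chromosomes. Cd74 (ENSMUSG00000024610), the invariant chain, lies at chr18:60803848-60812652 on the plus strand. Ciita (ENSMUSG00000022504) lies at chr16:10480059-10528418 on the plus strand. Mgl2 (ENSMUSG00000040950, chr11:70130329-70137550, plus) and Cd209a (ENSMUSG00000031494, chr8:3743397-3748984, minus) complete the set. All 9 are annotated as protein coding.

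Libraries held 4242450 to 18328741 counts. Levels are in CPM, a gene's count per 1000000 counts of its library, and a count of 3, taken as the floor below which a gene counts as not detected, corresponds to 0.164 to 0.707 CPM. The median number of genes with a read was lower at 24 and 72 h than in the healthy and 4 h libraries, from 18311 against 19396.5 in whole kidney to 6982 against 12632.5 in peritubular capillaries. The libraries of 24 and 72 h also stand apart in the order of the table, and time and that order cannot be told apart. For this reason each time point is set against its own sham group. The 4 peritubular capillary libraries at 72 h after CLP held 2949 to 5595 genes (median 3650), against group medians of 6756 to 12777 elsewhere in that compartment, and every result there is given with that limit. In healthy mice smooth muscle markers summed to 15300 to 25500 CPM in arterioles, and podocyte markers to 8540 to 10200 CPM in glomeruli. Proximal tubule markers summed to 62000 to 81700 CPM in peritubular capillaries, against 5090 to 13400 in arterioles, 6800 to 9930 in glomeruli and 23000 to 28200 in venules. Endothelial markers summed to 456 to 1050 CPM in the capillary libraries, around the 507 to 596 CPM of whole kidney, so these libraries were not rich in their labelled cell type by these markers.

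In whole kidney the chain genes were lower after CLP than after sham at 24 and 72 h. H2-Aa, the alpha chain of I-A, measured 77.6, 101.3, 90 and 121.9 CPM in the 4 sham mice at 24 h. It measured 37.0, 33.4, 28.4 and 34.5 CPM in the 4 CLP mice. The groups did not overlap, and the lowest sham mouse was above the highest CLP mouse. The difference was -1.58 ± 0.15 as a log2 fold change with its standard error (SE). At 72 h sham mice measured 103.3, 92.5, 91.4 and 89.9 CPM and CLP mice 54.0, 66.9, 66.2 and 38.6 CPM. These groups did not overlap either, at a log2 fold change of -0.82 ± 0.15. At 4 h the order was the opposite: sham mice measured 120.9, 109.9, 83.8 and 121.0 CPM, all below CLP mice at 126.2, 122.0, 131.0 and 131.7 CPM (0.29 ± 0.14). In bulk tissue, fewer cells of a type and less RNA per cell cannot be told apart, here and in all that follows.

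H2-Ab1, the beta chain that pairs with H2-Aa, was lower at the same times. At 24 h sham mice measured 82.7, 98.4, 112.9 and 116.2 CPM and CLP mice 49.5, 53.8, 36.0 and 48.9 CPM, with no overlap (-1.15 ± 0.15). At 72 h sham mice measured 93.9, 85.0, 101.7 and 97.4 CPM and CLP mice 51.7, 68.4, 77.3 and 53.8 CPM, again with no overlap (-0.67 ± 0.15). At 4 h the sham range of 71.7 to 103.4 CPM met the CLP range of 97.6 to 129.4 CPM (0.35 ± 0.14). H2-Eb1, a beta chain of I-E, measured 80.0, 106.1, 106.3 and 131.4 CPM in sham mice at 24 h and 34.9, 38.9, 24.7 and 47.6 CPM in CLP mice. The groups stood apart (-1.56 ± 0.18). At 72 h its sham values were 89.8, 81.4, 106.1 and 84.8 CPM and its CLP values 55.5, 73.2, 69.5 and 50.2 CPM, without overlap and closer together than at 24 h (-0.62 ± 0.18). At 4 h the groups of H2-Eb1 overlapped (0.23 ± 0.17). The symbol H2-Ea, that of the alpha chain gene of I-E, was not found among the counted genes, and other names of it were not searched. Whether the H2-Eb1 chain reached the cell surface was not tested.

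**Figure D1:**
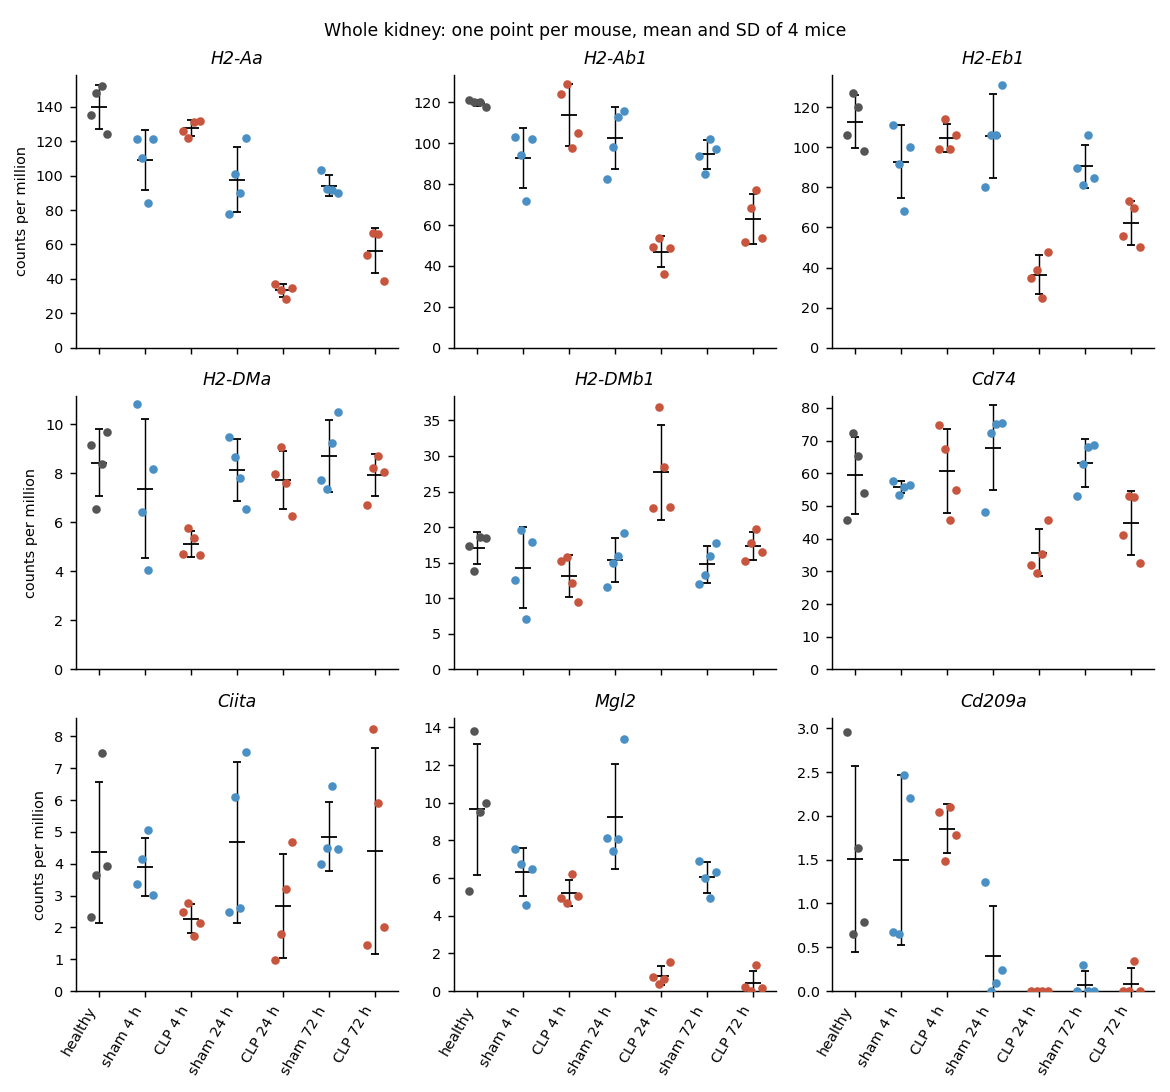
Whole kidney levels of the 9 genes in CPM, 1 point per mouse, with mean and SD of 4 mice in each of 7 groups (grey healthy, blue sham, red CLP). The 3 chain genes and Mgl2 lie lower in CLP than in sham mice at 24 and 72 h, whereas H2-DMb1 lies higher in CLP mice at 24 h (22.7 to 36.9 against 11.6 to 19.2 CPM).

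The invariant chain Cd74, which blocks the peptide groove and guides new class II molecules to the endosome, was lower too, by less. At 24 h sham mice measured 48.3, 72.4, 75.2 and 75.5 CPM and CLP mice 32, 29.5, 35.3 and 45.8 CPM. The nearest mice of the groups, 48.3 and 45.8 CPM, were close but did not overlap (-0.95 ± 0.19). At 72 h sham mice measured 53.0, 63.0, 68.0 and 68.8 CPM and CLP mice 41.2, 53.0, 52.6 and 32.7 CPM, so that the highest CLP mouse met the lowest sham mouse (-0.58 ± 0.19). At 4 h the difference was 0.17 ± 0.18.

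The subunits of DM, the chaperone that exchanges the invariant chain fragment for peptide, did not follow the chains. H2-DMb1 was higher in CLP mice at 24 h, at 22.7, 36.9, 28.4 and 22.8 CPM against 11.6, 14.9, 15.9 and 19.2 CPM in sham mice. The groups did not overlap (0.82 ± 0.23), and this was the 1 class II gene that was higher after CLP while the chains were lower. At 72 h the values of H2-DMb1 overlapped, at 15.3 to 19.8 CPM in CLP mice and 12.0 to 17.8 CPM in sham mice (0.15 ± 0.23). H2-DMa, its partner, measured 8.0, 9.1, 7.6 and 6.2 CPM in CLP mice and 9.5, 8.7, 7.8 and 6.5 CPM in sham mice at 24 h. These overlapped (-0.10 ± 0.22), as did its values at 72 h (-0.21 ± 0.23). H2-DMb1 has a relative, H2-DMb2, whose last 400 transcript bases were 62.4% identical with a longest identical run of 23 bases. Whether any 3′ reads of the 2 genes were hard to assign was not tested. H2-DMb2 measured -1.05 ± 0.64 at 24 h (edgeR adjusted p = 0.465), a log2 fold change in the other direction.

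Ciita was near the limit of what 4 mice can show. At 24 h it measured 2.5, 6.1, 2.6 and 7.5 CPM in sham mice and 1.0, 1.8, 3.2 and 4.7 CPM in CLP mice, from 8 to 61 counts a library. The groups overlapped (-0.82 ± 0.47). At 4 h sham mice measured 3.4, 4.1, 5.1 and 3.0 CPM and CLP mice 2.5, 2.8, 1.7 and 2.1 CPM, with no overlap (-0.72 ± 0.47). So at 4 h Ciita was lower in CLP than in sham mice while H2-Aa was higher. At 72 h CLP mice measured 1.5, 8.2, 5.9 and 2.0 CPM, so that 2 lay below the sham range of 4.0 to 6.4 CPM, 1 inside it and 1 above it.

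Of the lectins, Mgl2 differed by more than the chains. Mgl2, a galactose-binding C-type lectin (CD301b) of type 2 dendritic cells and some macrophages, measured 8.1, 7.4, 8.1 and 13.4 CPM in sham mice at 24 h. It measured 0.7, 0.4, 0.6 and 1.6 CPM in CLP mice, from 3 to 12 counts a library. At 72 h it measured 6.9, 6.0, 5.0 and 6.3 CPM in sham mice and 0.2, 0.0, 1.4 and 0.1 CPM in CLP mice. The groups did not overlap at either time, at log2 fold changes of -3.49 ± 0.44 and -3.93 ± 0.52. At 4 h sham mice measured 7.5, 6.8, 4.6 and 6.5 CPM and CLP mice 4.9, 4.7, 6.2 and 5.0 CPM, which overlapped (-0.23 ± 0.36). Mgl2 has a relative, Clec10a, whose last 400 transcript bases were 47.6% identical, with a longest identical run of 6 bases.

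Cd209a, a mouse relative of the lectin DC-SIGN carried by monocyte-derived and type 2 dendritic cells, left few reads. Healthy mice gave 24, 5, 20 and 7 counts, sham mice at 24 h gave 10, 0, 1 and 2, and CLP mice at 24 h gave none. At 72 h sham mice gave 0, 2, 0 and 0 counts and CLP mice 0, 0, 2 and 0. No fold between CLP and sham is given at 24 or 72 h, since nearly all those libraries were at or under the floor of 3 counts. At 4 h CLP mice gave 19, 14, 22 and 29 counts and sham mice 6, 6, 20 and 24, with overlapping levels (0.35 ± 0.70).

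Counted by the edgeR quasi-likelihood test with Benjamini-Hochberg adjustment at an adjusted p under 0.05, 5 of the 9 genes were past the threshold downwards at 24 h (H2-Aa, H2-Ab1, H2-Eb1, Cd74 and Mgl2), where 2.24% of 14936 tested genes were, and H2-DMb1 upwards, where 3.04% were. At 72 h 4 were past it downwards (H2-Aa, H2-Ab1, H2-Eb1 and Mgl2), against 2.15% of all genes, and none upwards, against 1.74%. At 4 h none was past it, against 0.556% downwards and 1.69% upwards, with 2 of the 9 at an unadjusted p under 0.05 and none by DESeq2. Of all 14936 genes, 1537 were at an unadjusted edgeR p under 0.05 at 4 h. Because the genes were chosen on these values, nothing is read from these counts. Leaving Cd209a aside, the median log2 fold change of the other 8 was 0.05, -1.05 and -0.60 at 4, 24 and 72 h, against 0.00, 0.02 and 0.03 over all genes. H2-DMb1 lost its place past the threshold at 24 h without sham 24 h replicate 1, 2 or 3 or CLP 24 h replicate 2 or 3, with log2 fold changes from 0.65 to 0.84. H2-Eb1 lost it at 72 h without sham 72 h replicate 1, 3 or 4 or CLP 72 h replicate 1 or 4.

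**Figure D2:**
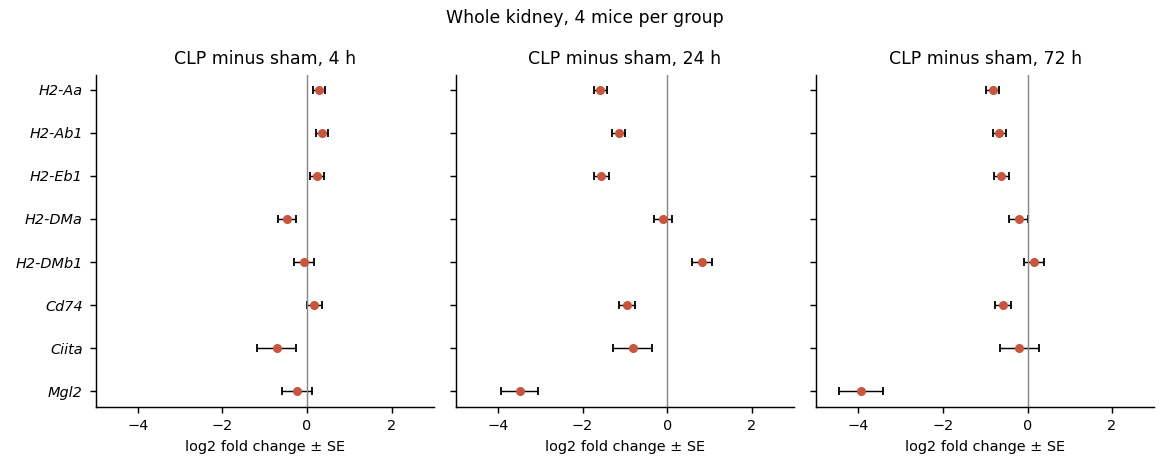
Log2 fold change with its SE of CLP against sham in whole kidney at 4, 24 and 72 h for 8 genes, 4 mice per group; Cd209a is not drawn because 15 of its 16 libraries at 24 and 72 h lay at or under 3 counts. The chains and Mgl2 lie left of 0 at 24 and 72 h, and H2-DMb1 lies right of 0 at 24 h (0.82 ± 0.23).

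Genes around the class II pathway were taken from lists by role and tested on CLP against sham, with adjusted p-values from the same edgeR test. These lists and the cell marker lists below were also chosen with earlier results of these data known. Their p-values carry that limit and are not independent evidence. Counts at an unadjusted p under 0.05 are given below for these lists. Of all 14936 genes, 1537, 2336 and 2067 were at such a p by edgeR at 4, 24 and 72 h. Of 10 tested genes that prepare antigen for class II, 3 rose and none fell at 24 h, all 3 of them cathepsins. Ctss, the cathepsin that trims the invariant chain, measured 49.4 ± 8.25 CPM in CLP mice against 20.4 ± 3.72 CPM in sham mice (SD, n = 4), a log2 fold change of 1.25 ± 0.21 (edgeR adjusted p = 0.000132). Ctsl rose by 1.27 ± 0.21 (edgeR adjusted p = 0.000177) and Ctsb by 0.59 ± 0.10 (edgeR adjusted p = 0.000326) on the log2 scale. At 72 h Ctss was the 1 of the 10 that rose (1.94 ± 0.21, edgeR adjusted p = 1.32e-07), so the protease that cuts the invariant chain was higher at both times at which the chains were lower. The 3 tested relatives of the chains and chaperone, H2-DMb2, H2-Oa and H2-Ob, did not pass at 4, 24 or 72 h by edgeR or DESeq2, and none reached an unadjusted p under 0.05. H2-Oa measured -0.72 ± 0.85 at 24 h (edgeR adjusted p = 0.766).

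None of the 7 promoter factors that bind the X and Y boxes (Rfx5, Rfxap, Rfxank, Nfya, Nfyb, Nfyc and Creb1) passed at any time by edgeR or DESeq2, with 0, 0 and 1 at an unadjusted p under 0.05 at 24, 72 and 4 h. Of 9 tested genes of the interferon gamma pathway, none passed at 24 or 72 h by either tool, with 2 at an unadjusted p under 0.05 each time. At 4 h Irf1, an interferon-induced activator of Ciita, rose by 1.03 ± 0.22 (edgeR adjusted p = 0.00418), although not without CLP 4 h replicate 1 (adjusted p = 0.0899). Of 4 tested co-stimulation genes, Cd40 alone passed at 4 h, at 8.17 ± 1.69 CPM in CLP mice against 1.38 ± 0.128 CPM in sham mice (2.60 ± 0.41, edgeR adjusted p = 0.000141), and none passed at 24 or 72 h by either tool or at an unadjusted p under 0.05.

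MHC class I genes, which present peptides from inside the cell, were not lower with the class II chains. Of 16 tested, 2 rose and none fell at 24 h. B2m, the class I light chain, measured 529.0 ± 168.0 CPM in CLP mice against 348.0 ± 13.2 CPM in sham mice (0.57 ± 0.15, edgeR adjusted p = 0.0184), a call lost without sham 24 h replicate 1 or CLP 24 h replicate 2 (adjusted p = 0.0647 and 0.182). Psmb10, a subunit of the immunoproteasome, rose by 0.74 ± 0.19 (edgeR adjusted p = 0.0139), a call lost without CLP 24 h replicate 2. At 72 h B2m alone rose (0.56 ± 0.15, edgeR adjusted p = 0.0241), a call lost in 5 of 8 removals of a library: sham 72 h replicate 1, 2 or 4 or CLP 72 h replicate 1 or 2.

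The dendritic cell label was checked against other markers. In healthy whole kidney Zbtb46, a transcription factor of conventional dendritic cells that endothelium also expresses, measured 12.0 to 15 CPM, but Flt3, Xcr1 and Clec9a, more restricted markers, ranged from 0.163 to 0.898, 0.784 to 1.48 and 0.488 to 1.01 CPM, near the floor. Of 7 tested markers of all conventional dendritic cells, none passed at 24 or 72 h, with 0 and 1 at an unadjusted p under 0.05 and none by DESeq2. Their summed level, 1270 to 1570 CPM in CLP and 1370 to 1980 CPM in sham mice at 24 h, was mostly Napsa (1190 to 1470 and 1270 to 1860 CPM), a protease that kidney tubule also makes. Zbtb46 measured -0.36 ± 0.22 (edgeR adjusted p = 0.477) and Itgax, the CD11c chain, -0.35 ± 0.41 (edgeR adjusted p = 0.771) at 24 h. Of 7 tested markers of type 1 dendritic cells, none passed at 24 h by either tool and none at 72 h by edgeR, with 2 at an unadjusted p under 0.05 each time and 1 higher by DESeq2 at 72 h. They summed to 77.0 to 87.7 CPM in CLP and 80.5 to 92.9 CPM in sham mice at 24 h.

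Markers of type 2 and monocyte-derived dendritic cells, the list nearest to Mgl2 and Cd209a, went in both directions. Of 5 tested genes, 2 rose (Clec4a2 and Tnip3) and 1 fell at 24 h. Clec10a, the relative of Mgl2, fell from 3.15 ± 1.0 CPM in sham mice to 1.01 ± 0.635 CPM in CLP mice (SD, n = 4), by 1.61 on the log2 scale with an SE of 0.45 (edgeR adjusted p = 0.0255). That call was lost without sham 24 h replicate 1 or 4 or CLP 24 h replicate 1, 2 or 3 (adjusted p from 0.0696 to 0.0807). Tnip3, an inhibitor of inflammatory signalling, rose by 2.59 ± 0.73 (edgeR adjusted p = 0.0275), a call lost without sham 24 h replicate 2, 3 or 4 or CLP 24 h replicate 2 or 3 (adjusted p from 0.0559 to 0.0954). Clec4a2, an inhibitory receptor of dendritic cells, macrophages and monocytes, rose from 0.607 ± 0.168 to 8.68 ± 1.89 CPM (3.76 ± 0.41, edgeR adjusted p = 2.16e-07) and was higher at 72 h too (2.65 ± 0.39, edgeR adjusted p = 2.23e-05). At 72 h Clec10a measured -0.34 ± 0.43 (edgeR adjusted p = 0.838), a smaller difference than Mgl2 showed at that time. The summed level of this list without Mgl2 and Cd209a was 55 to 74.5 CPM in CLP and 43.0 to 68.7 CPM in sham mice at 24 h, with Cd209c and Cd209d at 0 in all CLP mice.

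Markers of other leukocytes, class II-bearing and not, were tested as well. Of 14 kidney macrophage markers, 8 rose and none fell at 24 h and 8 rose and none fell at 72 h (6 to 7 and 6 to 8 when a library was left out). C1qa, a complement chain made by tissue macrophages, rose by 1.09 ± 0.21 at 24 h (edgeR adjusted p = 0.000883) and by 2.22 ± 0.22 at 72 h (edgeR adjusted p = 2.22e-08). The list summed to 821 to 887 CPM in CLP against 700 to 798 CPM in sham mice at 24 h and to 1080 to 1250 against 682 to 721 CPM at 72 h. Of 8 markers of all leukocytes, 4 rose at 24 h and 7 at 72 h, and none fell. Without CLP 72 h replicate 2 the calls of Cd53, Coro1a and Ptprc were lost, which left 4 at 72 h, and at 24 h Coro1a was lost in 5 of 8 removals of a library. Fcer1g, an Fc receptor chain of myeloid cells, rose by 1.86 ± 0.22 at 24 h (edgeR adjusted p = 5.27e-07), and the list summed to 147 to 173 CPM in CLP against 69.1 to 79.2 CPM in sham mice. Of 7 tested neutrophil markers, 5 rose at 24 h and 7 at 72 h, and their list summed to 81.6 to 156 CPM in CLP against 8.58 to 14.5 CPM in sham mice at 24 h. S100a8, a calcium-binding protein of neutrophils and monocytes, rose from 3.8 ± 1.42 to 67.7 ± 15 CPM at 24 h (4.13 ± 0.39, edgeR adjusted p = 2.3e-07). Of 9 tested monocyte markers, 2 rose and 1 fell at 24 h. F13a1 rose by 1.77 ± 0.39 (edgeR adjusted p = 0.00415) and Chil3 by 2.99 ± 0.78 (edgeR adjusted p = 0.0165), while Ace, a marker of patrolling monocytes that tubule and endothelium also express, fell by 0.62 on the log2 scale with an SE of 0.18 (edgeR adjusted p = 0.0311). The call of Chil3 was lost without sham 24 h replicate 1, 3 or 4 or CLP 24 h replicate 2, and that of Ace without sham 24 h replicate 1 or 2 or CLP 24 h replicate 2 or 4. The monocyte list summed to 51.5 to 84.5 CPM in CLP and 46.5 to 79.6 CPM in sham mice.

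Of 4 tested B cell and 7 tested T and NK cell markers, none passed at 24 h by either tool, with 1 of each list at an unadjusted p under 0.05. B cell markers summed to 1.45 to 49.6 CPM in CLP and 7.71 to 9.98 CPM in sham mice, with Cd79a and Pax5 at 0 in all CLP mice. Of 8 proximal tubule markers, 3 fell at 24 h, among them Miox (-1.28 ± 0.18, edgeR adjusted p = 8.67e-06). The part of these cell markers in the class II values was not tested.

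**Figure D3:**
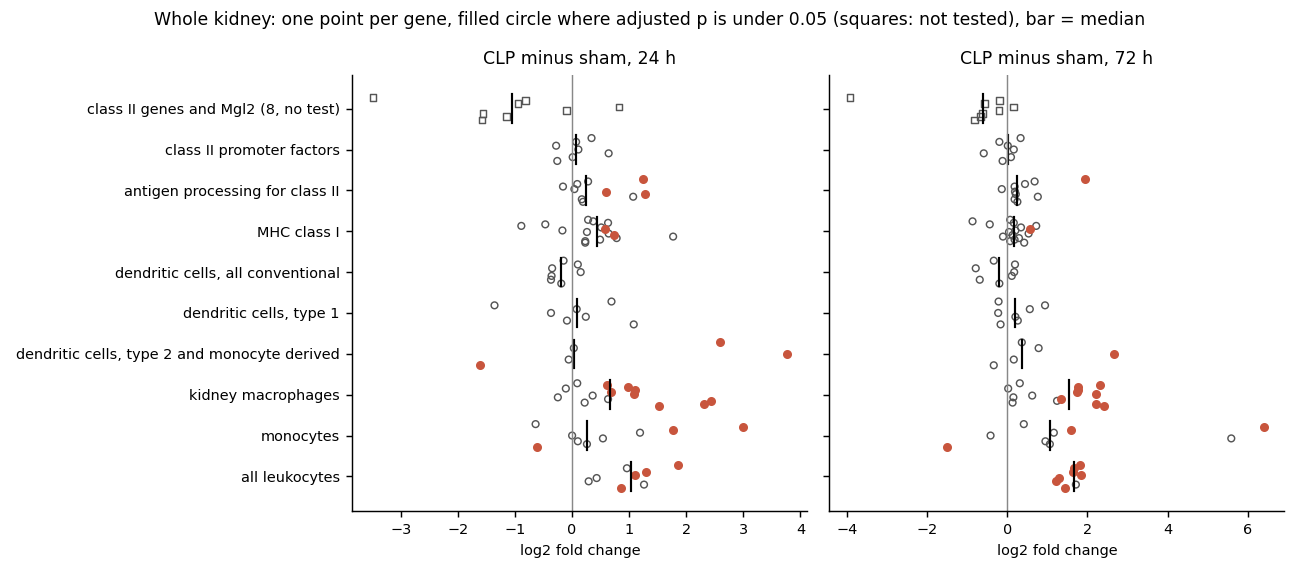
Log2 fold change of CLP against sham in whole kidney at 24 and 72 h, 1 mark per gene; rows are gene lists, filled circles have an adjusted p under 0.05, squares (the class II genes and Mgl2) are not tested, and bars are medians. The squares lie mostly left of 0, with a median of -1.05 at 24 h and -0.60 at 72 h, while macrophage and leukocyte markers lie mostly right of it.

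At 4 h, before the chains were lower, several antigen presentation genes already differed between CLP and sham. Irf8, a factor that type 1 dendritic cells and other mononuclear cells need, rose by 0.91 ± 0.16 (edgeR adjusted p = 0.000721). Cd83, which keeps class II on the surface of mature dendritic cells, rose by 1.99 ± 0.51 (edgeR adjusted p = 0.0273), a call lost without sham 4 h replicate 2, 3 or 4 or CLP 4 h replicate 1, 2 or 4. Tap1, a class I peptide transporter subunit, rose by 1.13 ± 0.28 (edgeR adjusted p = 0.0197), a call lost without sham 4 h replicate 1, 2 or 3 or CLP 4 h replicate 1. The macrophage marker Cx3cr1 fell by 1.74 on the log2 scale with an SE of 0.23 (edgeR adjusted p = 1.09e-05) at 4 h, but it rose by 0.98 ± 0.19 at 24 h (edgeR adjusted p = 0.000894).

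Sham surgery against healthy mice was not the contrast used to choose the genes, and it was tested. It shares the sham libraries with that contrast, so its p-values here and in the compartments below are not independent of the choice. None of the 9 passed at 4 h, where 0.777% of genes were higher and 0.161% lower (edgeR; 2 at an unadjusted p under 0.05, 0 by DESeq2). None passed at 24 h, where 3.41% were higher and 3% lower (edgeR; 2 at an unadjusted p under 0.05, 1 by DESeq2, H2-Aa). Of all 14936 genes, 1364 at 4 h and 3742 at 24 h were at an unadjusted edgeR p under 0.05. Nothing is read from the unadjusted counts of the 9. At 72 h 2 of the 9, H2-Aa and Cd209a, were lower, where 4.09% of genes were higher and 4.35% lower. H2-Aa measured 134.9, 148.3, 151.7 and 123.5 CPM in healthy mice, above every sham mouse at 4, 24 and 72 h. Its log2 fold changes against healthy were -0.34 ± 0.14 at 4 h (edgeR adjusted p = 0.425), -0.42 ± 0.14 at 24 h (edgeR adjusted p = 0.0693) and -0.46 ± 0.14 at 72 h (edgeR adjusted p = 0.0445). The call at 72 h was lost without healthy replicate 1, 2 or 3 or sham 72 h replicate 2, 3 or 4 (adjusted p from 0.0758 to 0.114). H2-Ab1 was also above every sham mouse in the 4 healthy mice (117.8 to 120.8 CPM), at -0.34 ± 0.14, -0.13 ± 0.14 and -0.23 ± 0.14, and did not pass (edgeR adjusted p = 0.414, 0.62 and 0.312).

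Cd209a fell from 56 counts over the 4 healthy mice to 2 counts over the 4 sham mice at 72 h, at a fitted log2 fold change of -4.10 ± 1.07 (edgeR adjusted p = 0.0218). The ratio of the pooled rates was 0.0439, with a 95% exact interval of 0.00519 to 0.166 that covers counting error only. This call was lost without healthy replicate 1 or sham 72 h replicate 3 or 4 (adjusted p from 0.0724 to 0.0851). At 24 h the sham mice gave 13 counts (rate ratio 0.241, 0.121 to 0.447), 10 of them in 1 mouse, and did not pass (edgeR adjusted p = 0.147). Sham mice at 4 h, at 6, 6, 20 and 24 counts, did not pass against healthy mice (0.03 ± 0.71, edgeR adjusted p = 0.999). The other lectin, Mgl2, did not pass in sham mice at 4, 24 or 72 h (-0.59 ± 0.35, 0.02 ± 0.35 and -0.57 ± 0.36 against healthy). As the libraries of 24 and 72 h stand apart from those of healthy mice in the table, time after surgery and that order cannot be told apart here.

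The same genes were read in the 4 microdissected compartments, where every library holds RNA from few cells. In healthy mice H2-Aa measured 235.4, 225.5, 414.3 and 422.2 CPM in arterioles and 274.2, 416.0, 382.2 and 182.1 CPM in venules. It measured 242.6, 223.2, 206.0 and 143.8 CPM in glomeruli and 25.1, 146.8, 48.2 and 6.8 CPM in peritubular capillaries. The compartments ranked with capillaries lowest, and arterioles and venules overlapped. Each was tested against the average of the remaining 3, and the fit carried a term for each mouse, so glomeruli and venules carry part of every contrast.

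H2-Aa was higher in arterioles (1.69 ± 0.46, edgeR adjusted p = 0.0118), the 1 of 9 genes past the threshold there, where 7.32% of 12179 genes were. This call was lost without healthy replicate 3 (1.76, adjusted p = 0.065) or 4 (1.22, adjusted p = 0.109). It was lower in peritubular capillaries (-2.53 ± 0.59, edgeR adjusted p = 0.00252), again the 1 of 9, where 6.13% of genes were past the threshold. In glomeruli and venules none of the 9 passed (edgeR; 0 and 2 at an unadjusted p under 0.05, 1 and 1 by DESeq2), where 4.18% and 0.591% did. Of all 12179 genes, 1826 in glomeruli and 1188 in venules were at an unadjusted edgeR p under 0.05. The median of all genes in these contrasts was -0.27 in arterioles, 0.38 in glomeruli, -0.04 in capillaries and 0.14 in venules. The partner chain H2-Ab1 had the same signs but did not pass (arterioles 1.08 ± 0.48, edgeR adjusted p = 0.166; capillaries -1.21 ± 0.54, edgeR adjusted p = 0.199). Leukocyte markers in the same healthy libraries summed to 80.2 to 539 CPM in arterioles, 129 to 384 in glomeruli, 88.3 to 365 in venules and 1.14 to 50.2 in capillaries, and endothelial markers to 2300 to 3590 CPM in arterioles, 3690 to 4880 in glomeruli and 674 to 1280 in venules. So capillary libraries were low in H2-Aa, in leukocyte markers and in endothelial markers and high in proximal tubule markers, and the part of each in H2-Aa was not tested.

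After sham surgery at 4 h none of the tested genes among the 9 passed against healthy mice in arterioles, glomeruli, capillaries or venules (edgeR; 0 at an unadjusted p under 0.05 and 0 by DESeq2 in each). Of all genes 0%, 0.00686%, 0% and 0% passed there. At an unadjusted edgeR p under 0.05 were 668 of 12183, 707 of 14586, 347 of 11772 and 644 of 13530 genes. Later times were not set against healthy mice in these compartments.

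**Figure D4:**
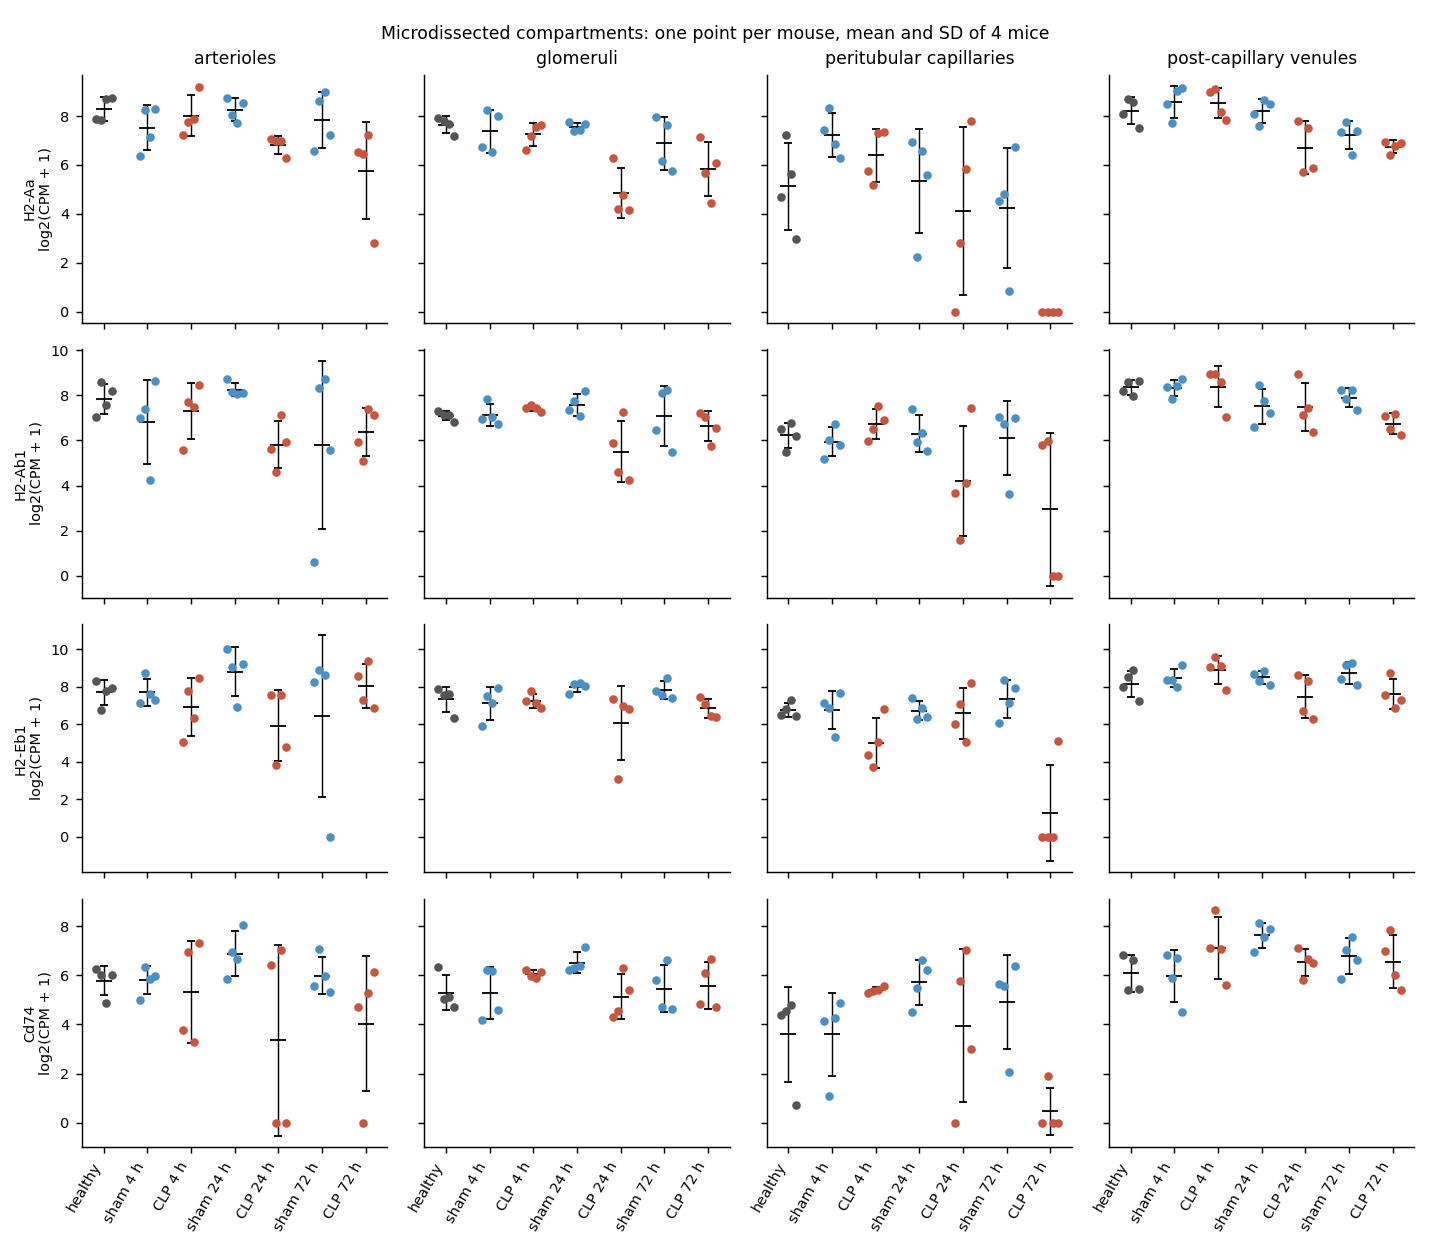
Levels of H2-Aa, H2-Ab1, H2-Eb1 and Cd74 in the 4 microdissected compartments as log2(CPM + 1), 1 point per mouse, with mean and SD of 4 mice in each of 7 groups (grey healthy, blue sham, red CLP). H2-Aa is lower in CLP than in sham mice at 24 h without overlap in arterioles and glomeruli, and it is at 0 in the 4 capillary libraries of CLP mice at 72 h.

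CLP against sham in the compartments is again a description. In arterioles at 24 h H2-Aa measured 429.6, 263.5, 210.6 and 366.8 CPM in sham mice and 131.3, 125.3, 124.6 and 76.9 CPM in CLP mice. H2-Ab1 measured 414.9, 284.3, 265.8 and 273.0 CPM in sham mice and 47.6, 23.6, 140.4 and 59.4 CPM in CLP mice. Neither overlapped (-1.59 ± 0.69 and -2.25 ± 0.85), yet none of the 9 was past the threshold in arterioles at 4, 24 or 72 h, where 0.00821%, 0.0164% and 0% of genes were (0, 4 and 4 at an unadjusted p under 0.05, and 0, 2 and 2 by DESeq2). Of all 12183 genes, 418, 1890 and 2100 were at an unadjusted edgeR p under 0.05 at 4, 24 and 72 h. The 2 by DESeq2 at 24 h and at 72 h were not these chains but H2-DMa and Mgl2. Those genes had no read in 13 and 17 of the 28 arteriole libraries.

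In glomeruli at 24 h H2-Aa measured 214.6, 165.3, 169.3 and 201.3 CPM in sham mice and 77.8, 17.2, 26 and 16.6 CPM in CLP mice. The groups stood apart (-2.43 ± 0.54), and H2-Aa was the 1 gene of the 9 past the threshold, where 0.137% of genes were. That place was lost in 7 of 8 removals of a library, all but that of CLP 24 h replicate 1. H2-Eb1 did not overlap in glomeruli at 24 h either (sham 194.9 to 289.5 CPM, CLP 7.5 to 159.2 CPM, -1.33 ± 0.50), whereas H2-Ab1 did (-1.58 ± 0.53). At 4 and 72 h none of the 9 was past the threshold in glomeruli, where 0.11% and 0.0343% of genes were (0 and 2 at an unadjusted p under 0.05, 0 and 1 by DESeq2). Of all 14586 genes, 772 and 1498 were at an unadjusted edgeR p under 0.05 at these times.

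In venules H2-Aa measured 272.6, 191.1, 402.1 and 358.6 CPM in sham mice at 24 h and 222.3, 51.0, 179.1 and 57.1 CPM in CLP mice, with 1 CLP mouse inside the sham range (-1.41 ± 0.42). H2-Ab1 in venules overlapped at 24 h, at a log2 fold change of 0.00 with an SE of 0.43, but stood apart at 72 h, at 297.5, 224.4, 295.6 and 162.4 CPM in sham and 136.0, 89.8, 143.0 and 73.8 CPM in CLP mice (-1.30 ± 0.43). None of the 9 was past the threshold in venules at 4, 24 or 72 h, where 0%, 0.0813% and 0.0443% of genes were (1, 3 and 2 at an unadjusted p under 0.05, 0, 2 and 1 by DESeq2). Of all 13530 genes, 768, 1385 and 1715 were at an unadjusted edgeR p under 0.05. At 4 h the chains did not stand apart in any microdissected compartment, in either direction.

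Peritubular capillaries were the least stable compartment. At 24 h H2-Aa measured 123.3, 3.7, 94.8 and 47.3 CPM in sham mice and 0.0, 6.0, 55.5 and 224.2 CPM in CLP mice, so the groups overlapped over their whole range (-0.15 ± 1.65). At 72 h it was without a read in all 4 CLP libraries, against 22.3, 27.2, 0.8 and 103.8 CPM in sham mice. H2-Eb1 had 34.1 CPM in 1 CLP library and none in the other 3, against 65.0, 324.2, 138.6 and 239.6 CPM in sham mice. By threshold 4 of the 8 tested genes (H2-Aa, H2-Eb1, H2-DMb1 and Ciita) were lower and Mgl2 was higher at 72 h, but 22.3% of all genes were past the threshold there and the median of all genes was -1.28. Mgl2 was higher through a single library, CLP 72 h replicate 1, with 2600 counts (458.0 CPM), and the other 3 CLP libraries had none. At 4 and 24 h none of the 8 was past the threshold, where 0% and 0.051% of genes were (0 and 2 at an unadjusted p under 0.05, 0 and 0 by DESeq2). Of all 11772 genes, 384 and 2267 were at an unadjusted edgeR p under 0.05 at these times.

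The lectins were scarce in microdissected libraries, and a count of libraries describes them best. Mgl2 had more than 3 counts in 12 of 16 libraries of sham mice at 24 h and in 2 of 16 of CLP mice, of which 14 had no read. At 72 h the numbers were 6 and 3 of 16, at 4 h 9 and 4 of 16, and in healthy mice 6 of 16. In glomeruli at 24 h every sham library held Mgl2 (7.7, 15.2, 27.8 and 6.9 CPM) and no CLP library held a read of it. Cd209a had a read in 4 of 16 libraries of sham mice at 24 h and in 0 of 16 of CLP mice, and in 1 of 16 of each at 72 h.

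The 4 microdissected libraries of a mouse were also added up, which weights compartments by their depth. In this sum H2-Aa measured 239.0, 163.0, 226.0 and 215.0 CPM in sham mice at 24 h and 99.6, 57.7, 109.0 and 74.2 CPM in CLP mice, without overlap (-1.34 ± 0.28). It was the 1 of 9 past the threshold, where 0.541% of genes were, and lost that place without sham 24 h replicate 1 or CLP 24 h replicate 2 or 4. H2-Ab1 (-1.11 ± 0.32), H2-Eb1 (-1.24 ± 0.33) and Cd74 (-1.19 ± 0.43) had the same sign, and H2-DMb1 the other (0.51 ± 0.56), as in whole kidney. At 72 h H2-Aa measured 114.0, 201.0, 183.0 and 121.0 CPM in sham and 93.2, 55, 68.1 and 55.1 CPM in CLP mice (-1.14 ± 0.28), and at 4 h 163.0 to 290.0 and 185.0 to 299.0 CPM (0.07 ± 0.28). None of the 9 was past the threshold at 4 or 72 h, where 0.0832% and 0.428% of genes were (1 and 3 at an unadjusted p under 0.05, 0 and 2 by DESeq2). Of all 16834 genes, 924 and 2419 were at an unadjusted edgeR p under 0.05 at these times. Mgl2 in the sum measured 21.7, 17.6, 14.2 and 42.1 CPM in sham mice at 24 h and 0.236, 0.0, 0.0 and 1.15 CPM in CLP mice, and 1832 of the 2007 counts of the highest sham mouse came from its capillary library. At 72 h its difference was 0.99 ± 1.43, and it was -3.13 when the capillary libraries were left out of the sum, an alternative added after the data were seen.

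How the genes varied from mouse to mouse was described over the 28 whole kidney libraries as Pearson correlations of log2 CPM, which share groups, mice and depth. With the groups kept, r was 0.95 for H2-Aa with H2-Ab1, 0.95 for H2-Aa with H2-Eb1 and 0.96 for H2-Ab1 with H2-Eb1. After each group mean was subtracted it was 0.67, 0.78 and 0.81, so the 3 chains also went up and down together among mice of 1 group. Cd74 with Ciita gave 0.67 and H2-DMa with H2-DMb1 0.49 on that scale. H2-DMb1 with H2-Aa, H2-Ab1 and H2-Eb1 gave -0.54, -0.41 and -0.50 with the groups kept and 0.32, 0.61 and 0.35 within them. These values over 28 libraries were not tested. Mgl2 with H2-Aa gave 0.79 with the groups and 0.30 within them, and Mgl2 with Cd209a 0.16 within them.

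Other genes were ranked by the likeness of their pattern to the mean of 6 class II genes (H2-Aa, H2-Ab1, H2-Eb1, H2-DMa, H2-DMb1 and Cd74) over 13957 genes. This mean joins unlike patterns. With groups kept its r was 0.79 to 0.91 with the chains and Cd74, but 0.29 with H2-DMa and -0.12 with H2-DMb1. With groups kept the nearest were Chd3 (r = 0.80), Aspdh (0.79), Pecr (0.78), Haao (0.78), Myo5a (0.77), Slc9a8 (0.77), Ggct (0.77) and Mien1 (0.76). Within groups they were Kbtbd11 (0.85), Limk1 (0.73), Mdp1 (0.73), Gm37274 (0.72), Csad (0.71), Itgb7 (0.71), Erg (0.71) and Usp40 (0.71), none of which was in the first ranking. Nearest to Mgl2 were Serpinf2 (0.92), Nudt19 (0.92) and Slc51a (0.90), and within groups Casc3 (0.81), Slc22a2 (0.78) and Fgf12 (0.69). Nearest to Cd209a were Aamp (0.86), Zdhhc1 (0.86) and Sipa1l1 (0.85), and within groups Zdhhc1 (0.72), Nckipsd (0.71) and Mlxip (0.70). These are the highest of many correlations over 28 libraries and are given as a description.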

How the data were processed

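The deposited table gives raw counts of 3′ end reads per gene, with no normalization, for 140 libraries of 28 mice, and the deposited counts were used as they stand. Per the submitters' processing notes, the tools were STAR 2.7, HTSeq 0.13, featureCounts, SAMtools 1.9, FastQC 0.11.8 and MultiQC 1.7, and builds GRCm38.p6 and GRCm39 are named. Which build and counter made the table, and how reads shared by near-identical genes were treated, is not given in the sources used here. Counting at the 3′ end reads 1 end of each transcript, so a change of end site can move a count. Positions are those of GENCODE M21, in which 34185 of 34255 gene IDs were found, and are used for identity only.

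Groups come from the labels, which also give each mouse as a biological replicate. For the 20 healthy libraries the hours in the table's own header differ from the labels, and the labels were used. Libraries held 4242450 to 18328741 counts, and intervals and floors cover counting error only. CPM is the count divided by the library total. Log2 fold changes with SE come from edgeR 4.0.16 (R 4.3.3): TMM scaling, filterByExpr, 1 quasi-likelihood fit per compartment over its 28 libraries, and Benjamini-Hochberg adjustment over all genes tested, called at 0.05. Healthy compartments were compared in 1 fit with a term for each mouse, each against the average of the remaining 3. A fitted fold against a group wholly at 0 depends on the prior count. The report gives such a fold for Mgl2 in capillaries at 72 h without CLP 72 h replicate 1, and marks it there. The 9 genes and all gene lists were chosen with earlier results of these data known. All 9 genes are named, and of the lists those genes that passed or that carry the role described. Likeness was ranked among genes averaging 1 CPM or more. The scripts were tested on simulated data.

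Alternatives were DESeq2 1.42.0, RLE size factors, no filter on low counts, fits of only 8 libraries, limma 3.58.1 on mean CPM, a replicate block, and leaving out each library in turn. Same-numbered replicates are different mice, so the numbers were not taken to pair the mice. In whole kidney their deviations from the group means correlated at 0.49, 0.12, 0.06 and 0.17 between CLP and sham at 24 h. The same-numbered sham library was the nearest there for CLP replicates 1, 2 and 3. At 72 h the values were 0.39, 0.02, 0.04 and 0.18, nearest for replicates 1 and 2. At 4 h they were -0.12, -0.09, -0.03 and -0.14, nearest for none. What libraries share by number was not tested.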

Additional observations from a re-analysis of the deposited data

Results flagged for a closer look

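In 175 groups of 4 libraries (63 for the 9 genes in whole kidney and 112 for H2-Aa, H2-Ab1, H2-Eb1 and Cd74 in the microdissected compartments), the gap of the lowest or highest library to its neighbour was set against the group's range by Dixon's test at the 95% level. Where all but the highest library of a group are at 0, the gap is the whole range and a flag is certain. Of the 175 groups, 14 stood out, a number that holds such certain flags and was not tested against the 1 in 20 of the test level. In whole kidney these were the lowest healthy mouse for H2-Ab1 (118.0 CPM, the others 120.0 to 121.0), the lowest sham 24 h mouse for Cd74 (48.3 CPM, the others 72.4 to 75.5) and the highest sham 24 h mouse for Mgl2 (13.4 CPM, the others 7.44 to 8.11). They also included the highest CLP 72 h mouse for Mgl2 (1.39 CPM, the others 0.0 to 0.209) and, for Cd209a, 1 sham 72 h mouse (0.3 CPM) and 1 CLP 72 h mouse (0.347 CPM), each with the others at 0 and each from 2 counts.

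In arterioles H2-Aa was lowest in 1 CLP 24 h mouse (76.9 CPM, the others 125.0 to 131.0) and H2-Ab1 highest in 1 sham 24 h mouse (415.0 CPM, the others 266.0 to 284.0). In glomeruli H2-Aa was highest in 1 CLP 24 h mouse (77.8 CPM, the others 16.6 to 26), and Cd74 was highest in 1 healthy mouse (79.8 CPM, the others 25.1 to 33.4) and in 1 sham 24 h mouse (142.0 CPM, the others 72.7 to 83.3). In peritubular capillaries single libraries held H2-Ab1 at 24 h after CLP (174.0 CPM, the others 1.98 to 16.5), H2-Eb1 at 72 h after CLP (34.1 CPM, the others at 0) and Cd74 at 72 h after CLP (2.75 CPM, the others at 0).

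For 2 genes every CLP mouse lay on 1 side of its sham group at 4 h and on the other side later. H2-Aa in whole kidney measured 0.29 at 4 h against -1.58 at 24 h and -0.82 at 72 h as log2 fold changes. Cd74 in peritubular capillaries measured 1.32 at 4 h and -6.03 at 72 h, the latter against CLP libraries of which 3 had no read. These differences between times were not tested, and how many of all genes show the same pattern was not counted. In capillaries at 72 h 22.3% of all genes were past the threshold and the median log2 fold change of all genes was -1.28.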

How the results depend on the processing

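Of 694 log2 fold changes of the 9 genes recomputed in whole kidney, 26 changed sign, none of them among the 154 of differences past the threshold. In the compartments and their sum 138 of 2008 changed sign, 1 of them among the 88 of differences past the threshold. That 1 was Mgl2 in peritubular capillaries at 72 h, fitted at 10.64 and at -2.06 to 11.29 over all removals of a library. The value of -2.06 leaves out CLP 72 h replicate 1, the only CLP library with a read, so it is set against a group wholly at 0, its size depends on the prior count and its sign says nothing. The numbers of the 9 genes past the threshold that moved by more than 1.5 times were as follows, and the cause was not tested except where fewer libraries entered the fit. With DESeq2 they were 2 and 2 in arterioles at 24 and 72 h (0 and 0 by edgeR), 2 and 1 in glomeruli (1 and 0), 2 and 1 in venules (0 and 0) and 5 and 2 in the sum (1 and 0). In healthy compartments DESeq2 gave 2 in arterioles and 2 in capillaries (1 and 1 by edgeR) and 1 in glomeruli and 1 in venules (0 and 0). In whole kidney sham against healthy it gave 1 at 24 h and 1 at 72 h (0 and 2). RLE size factors gave 2 in capillaries at 72 h, where edgeR's TMM gave 5. limma on mean CPM gave 3 and 1 in the sum at 24 and 72 h. No filter gave 1 for sham against healthy at 72 h, and so did a fit of only 8 libraries.

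Leaving out a library gave 0 to 1 in glomeruli at 24 h, 0 to 1 in healthy arterioles, 1 to 4 in capillaries at 72 h, 0 to 2 and 0 to 1 in the sum at 24 and 72 h, and, for sham against healthy in whole kidney, 0 to 1 at 24 h and 0 to 2 at 72 h. CLP against sham in whole kidney gave 5 to 6 at 24 h and 3 to 4 at 72 h. Of the other listed genes, sham against healthy gave 0 to 2, 2 to 20 and 1 to 18 at 4, 24 and 72 h (2, 10 and 16 with all libraries), 4 and 26 at 4 and 72 h in a fit of only 8 libraries, and 17 at 24 h with DESeq2; CLP against sham at 24 h gave 20 in a fit of only 8 libraries (32 with all).

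With the replicate number as a block, sham against healthy gave 1 of the 9 genes at 24 h and 1 at 72 h, and 1, 25 and 29 other listed genes at 4, 24 and 72 h. Different mice share these numbers, which therefore do not pair them.

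Depth limits Cd209a and Ciita in whole kidney and Mgl2 after CLP, where single libraries hold few reads. Capillary libraries were about as deep as the others (4.242 to 18.329 against 4.778 to 16.309 M counts in whole kidney) but held fewer genes, and the cause was not tested. At 4 mice per group, single compartments show few differences of this size past the threshold.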
